A study of Homo sapiens with 6 samples.

Results

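Syndecans and glypicans are the 2 families of heparan sulfate proteoglycans anchored in the cell membrane, and their transcripts were compared between U251 cells with and without targeting of NUAK2. The members were chosen by name, as the 4 syndecan genes (SDC1, SDC2, SDC3 and SDC4) and the 6 glypican genes (GPC1, GPC2, GPC3, GPC4, GPC5 and GPC6), and were found by NCBI gene identifier. All 10 had a row among the 28395 genes of the count table, and 9 of the 10 were among the 14873 genes with enough counts to test. U251 (U251MG in the labels) is an established human glioblastoma line described as a glioblastoma astrocytoma. The WT group had 3 libraries of cells labelled WT, and the study does not say whether these cells carried a control vector. The NUAK2-CR group had 3 libraries of U251 cells in which NUAK2, a kinase related to AMPK, had been targeted with CRISPR-Cas9. A guide against NUAK2 was delivered by lentiviral vectors carrying GFP and mCherry, cells with both colors were sorted into multiwell plates, and clones were screened by PCR. No clone is named in the labels of the NUAK2-CR libraries, and 1 dataset legend of the study names clone CR-3, so the group may be 1 clone. Effects of the targeting itself, of the vectors and the sorting, and of the selection of a clone cannot be told apart. No label says that the 3 libraries of a group came from separate cultures, so the p-values measure the spread between these libraries, which may be technical.

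A syndecan spans the membrane once, carries heparan sulfate and in some members also chondroitin sulfate, and ends in a short cytoplasmic tail that binds PDZ proteins such as syntenin. A glypican is held in the outer leaflet by a glycosylphosphatidylinositol (GPI) anchor and carries its heparan sulfate close to the membrane. The sulfated chains of both families hold growth factors and morphogens of the FGF, VEGF, PDGF, WNT, Hedgehog and Slit families at the cell surface, and in glioma these proteoglycans are known as co-receptors for mitogens and as contacts to the extracellular matrix.

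Libraries held 35310946 to 55574081 counts in WT, against 29648445 to 33776712 counts in NUAK2-CR, and the first principal component, with 85.6% of the variance, separated the groups. Normalized counts below are counts scaled by the trimmed mean of M values (TMM) to a common library of 37507951 counts, and a called gene had a Benjamini-Hochberg adjusted p under 0.05 in edgeR's quasi-likelihood test over all tested genes. NUAK2 itself had 1926, 1457 and 1580 normalized counts in WT versus 799, 961 and 849 in NUAK2-CR, giving -0.93 on the log2 scale (SE 0.11, adjusted p = 1.8e-05). Its transcript was lower in every NUAK2-CR library but still present, at 52.6% of the WT mean. The study reports that immunoblot and qPCR verified the deletion in its U251 clones. Protein was not measured here, so these counts do not show how much NUAK2 protein was left. All 6 of 6 markers of the labelled cell type (VIM, NES, CD44, SOX2, S100B and GFAP) were detected and were lower in NUAK2-CR, with summed normalized counts of 321700 to 355700 in the WT libraries and 135900 to 142100 in NUAK2-CR. Among markers of other cells, 2 of 3 neuronal markers, SNAP25 and SYT1, were higher (sums of 449 to 582.6 in WT, against 1357 to 1612 in NUAK2-CR). The third, RBFOX3, was not called, with means of 12.6 normalized counts in WT and 7.98 in NUAK2-CR. Of 3 endothelial markers 2 were higher, PECAM1 and VWF (17.2 to 31.2 and 84.4 to 90.2), with PECAM1 means of 0.44 and 15.8. Of 3 epithelial markers 1 was higher, KRT18 (3210 to 3913 and 5206 to 5722), with KRT18 means of 3520 and 5499. Sums were lower for the microglia and macrophage markers (643.7 to 733.1 and 200.6 to 243.6), of which 1 of 4 was called, CD68, with means of 683 and 226. They were also lower for the oligodendrocyte markers (117.2 to 161.1 and 38.4 to 51.9), of which 1 of 3 was called, MBP. The defining markers MOG, AIF1 and CX3CR1 had 0 counts in all 6 libraries, and EPCAM and CDH1 had at most 6 counts in any library. The part of these marker shifts in the values below was not tested. In bulk RNA, fewer cells that express a gene and less RNA of it per cell cannot be told apart.

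The 2 families moved differently within themselves. SDC1 and SDC4 rose to 1.82 and 2.23 times their WT level, SDC3 fell to 73.5%, and SDC2 did not pass the test. Among glypicans, GPC3, GPC4 and GPC6 fell to 19.8%, 61.7% and 53.1% of WT, GPC1 rose to 1.14 times WT, GPC2 did not pass the test and GPC5 was close to absent. Of the 9 tested members 7 were called, 3 higher and 4 lower. The background was large, since 54.5% of all tested genes were called, 26.3% higher and 28.2% lower. The groups did not overlap for 7 of the 9 members, against 61.4% of all tested genes. The median log2 fold change was -0.07 over the members and -0.01 over all genes, and the median absolute log2 fold change was 0.70 over the members and 0.37 over all genes. The members were chosen with earlier results of these data known, so these shares and medians are a description. With the study's thresholds for differentially expressed genes (DEGs; adjusted p under 0.05 and absolute log2 fold change over 2), which 4.72% of all tested genes passed (1.89% higher and 2.83% lower), 1 member passed, the lower GPC3.

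**Figure D1:**
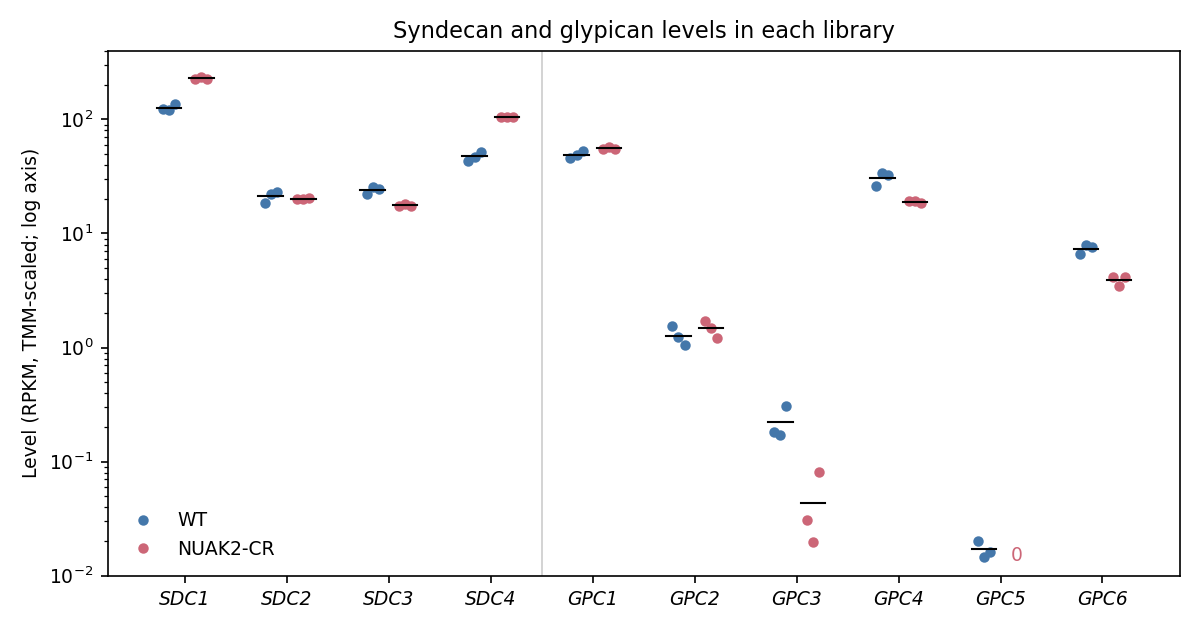
Level of each syndecan and glypican in each library, in RPKM (reads per kilobase of exon, scaled to TMM library size), on a log axis. Points are libraries (WT blue, NUAK2-CR red), lines are means of 3 libraries, and "0" marks the 3 NUAK2-CR libraries of GPC5. SDC1 and SDC4 lie higher and GPC3, GPC4 and GPC6 lie lower in all 3 NUAK2-CR libraries.

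Levels of different members were compared per length of exon. SDC1 was the most abundant member in both groups, at 126.3 ± 8.33 RPKM in WT versus 230.0 ± 6.43 RPKM in NUAK2-CR (mean ± SD, n = 3 each, as for all such values). In WT it was followed by GPC1 (49.1 ± 3.31 RPKM) and SDC4 (47.3 ± 4.21 RPKM), whose ranges overlapped. Then came GPC4 (30.8 ± 4.18 RPKM), SDC3 (24.0 ± 1.83 RPKM) and SDC2 (21.2 ± 2.50 RPKM), and the ranges of SDC3 and SDC2 overlapped. GPC6 stood lower, at 7.37 ± 0.72 RPKM, and GPC2 (1.27 ± 0.25 RPKM), GPC3 (0.221 ± 0.074 RPKM) and GPC5 (0.0170 ± 0.0028 RPKM) were scarce. In NUAK2-CR the order changed to SDC1, SDC4 (105.5 ± 0.61 RPKM), GPC1 (55.9 ± 1.63 RPKM), SDC2 (20.2 ± 0.22 RPKM), GPC4 (19.0 ± 0.49 RPKM), SDC3 (17.6 ± 0.34 RPKM), GPC6 (3.91 ± 0.40 RPKM), GPC2 (1.48 ± 0.25 RPKM) and GPC3 (0.0436 ± 0.0323 RPKM), with no overlap between neighbours in the order. SDC4 thus stood level with GPC1 in WT and above it in every NUAK2-CR library. Exon lengths were taken from GENCODE 44, and with the longest transcript in place of all exons GPC1 came to 86.1 RPKM in the WT libraries and 98.0 RPKM in NUAK2-CR, the ranges of GPC4 and SDC3 overlapped in both groups, and GPC1 stood clear of SDC4 in WT.

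SDC1 (gene 6382, chr2:20200797-20225475, hg38) encodes the syndecan best known from epithelia and plasma cells, which works with integrins and is readily shed. It had 16702, 16242 and 18387 normalized counts in WT, against 30457, 32142 and 30916 in NUAK2-CR. Every NUAK2-CR library was above every WT library. Its log2 fold change was 0.87 (SE 0.07, 95% interval 0.71 to 1.02, adjusted p = 5.96e-07). SDC4 (gene 6385, chr20:45325288-45348424) encodes the syndecan of focal adhesions, which binds fibronectin and activates protein kinase C alpha. It had 4272, 4556 and 5084 normalized counts in WT versus 10268, 10379 and 10360 in NUAK2-CR. The groups did not overlap, and the NUAK2-CR libraries had a mean of 10336 with an SD of 59.6. Its log2 fold change was 1.16 (SE 0.07, 95% interval 0.99 to 1.32, adjusted p = 8.15e-08).

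The promoters of these 2 genes are shown because they are the syndecans that rose. Each is the 250 bases before the gene's start in RefSeq (GRCh38.p14), written along the gene's strand, and capitals mark matches to GGGCGG, the GC box that SP-family factors can bind, on either strand. SDC1 lies on the minus strand at chr2:20225476-20225725 and has 1 match. SDC4 lies on the minus strand at chr20:45348425-45348674 and has 8 matches, 2 of them end to end.
SDC1: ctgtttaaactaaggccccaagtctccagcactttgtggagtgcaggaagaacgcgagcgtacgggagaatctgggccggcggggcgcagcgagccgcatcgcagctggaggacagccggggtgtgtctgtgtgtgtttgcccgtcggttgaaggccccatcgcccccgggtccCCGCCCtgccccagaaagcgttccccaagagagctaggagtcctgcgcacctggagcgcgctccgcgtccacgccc
SDC4: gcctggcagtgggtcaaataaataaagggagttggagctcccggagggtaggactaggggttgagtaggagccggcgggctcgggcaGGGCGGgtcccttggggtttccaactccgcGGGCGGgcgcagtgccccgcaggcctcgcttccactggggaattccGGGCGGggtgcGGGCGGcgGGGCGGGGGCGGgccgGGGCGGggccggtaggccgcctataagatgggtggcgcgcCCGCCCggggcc
Their GC contents were 66.4% and 73.6%, against a median of 58.0% over 27305 RefSeq promoters, of which 42.3% held a GC box in the same window. Searches on both strands for GGAATG (the core letters of TEAD sites), TGANTCA (AP-1) and TATAAA, the letters of the TATA box, found no match in either window, and 11.9%, 6.60% and 11.1% of all promoters held these letters. A match or its absence describes these letters in this window alone.

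SDC3 (gene 9672, chr1:30869466-30909735) encodes the neural syndecan, which binds pleiotrophin. It had 5822, 6771 and 6465 normalized counts in the WT libraries and 4658, 4764 and 4586 in NUAK2-CR. All NUAK2-CR libraries were below all WT libraries, and the log2 fold change was -0.44 (SE 0.07, 95% interval -0.60 to -0.29, adjusted p = 0.000212). SDC2 (gene 6383, chromosome 8), the syndecan of mesenchymal cells, had 2822, 3391 and 3549 normalized counts in WT, against 3089, 3056 and 3124 in NUAK2-CR. The NUAK2-CR values lay inside the WT range, between the lowest WT library and the other two. The log2 fold change was -0.07 with a 95% interval of -0.26 to 0.11 (adjusted p = 0.489), and without WT replicate 1 it was -0.16 (adjusted p = 0.0289), which passed the threshold.

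GPC1 (gene 2817, chr2:240435663-240468076) encodes a glypican that serves FGF2 signaling and binds Slit proteins, and it made up the largest share of glypican transcripts. It had 11200, 12020 and 12817 normalized counts in WT versus 13521, 14127 and 13376 in NUAK2-CR. The groups did not overlap, although the gap between the highest WT and the lowest NUAK2-CR library was small beside the spread in WT. Its log2 fold change was 0.19 (SE 0.07, 95% interval 0.04 to 0.34, adjusted p = 0.0381). This call was the least stable among the members. The adjusted p rose to 0.0729 without WT replicate 2, to 0.0621, 0.141 and 0.0765 without NUAK2-CR replicate 1, 2 or 3, and to 0.0507 with no filter on low counts. GPC2 (gene 221914, chr7:100169606-100177381), the glypican of developing neurons, had 222, 177 and 152 normalized counts in the WT libraries and 248, 213 and 176 in NUAK2-CR. These ranges overlapped, and the log2 fold change was 0.20 with a 95% interval of -0.21 to 0.61 (adjusted p = 0.39).

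GPC4 (gene 2239, chrX:133300103-133415489) and GPC6 (gene 10082, chr13:93216529-94408020) encode the glypicans that astrocytes release to promote the formation of excitatory synapses. GPC4 had 4849, 6296 and 6060 normalized counts in WT, against 3555, 3617 and 3436 in NUAK2-CR. The WT libraries spread widely, but the lowest was above all NUAK2-CR libraries. The log2 fold change of GPC4 was -0.70 (SE 0.09, 95% interval -0.90 to -0.50, adjusted p = 4.08e-05). GPC6 had 1749, 2113 and 2040 normalized counts in WT versus 1103, 919 and 1109 in NUAK2-CR. The groups were again apart, and its log2 fold change was -0.91 (SE 0.10, 95% interval -1.13 to -0.70, adjusted p = 7.61e-06). An antisense long noncoding RNA overlaps 511 bases of the GPC6 exons, and since featureCounts ran with its default setting, which does not use strand, reads of both cannot be told apart there.

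GPC3 (gene 2719, chrX:133535745-133985594), known from overgrowth syndrome and liver cancer, restrains Hedgehog signaling. It was rare in WT, with 34, 22 and 35 raw counts, and rarer in NUAK2-CR, with 3, 2 and 9. In normalized counts these were 22.6, 21.2 and 37.6 against 3.81, 2.41 and 9.88. No library of one group reached the other, and the log2 fold change was -2.26 (SE 0.55, 95% interval -3.46 to -1.07, adjusted p = 0.00382). The wide interval comes with these low counts, and the log2 fold change was -1.98 without WT replicate 3, -1.92 without NUAK2-CR replicate 2 and -1.95 with a prior count of 2, each short of the DEG threshold. GPC5 (gene 2262, chr13:91398621-92867237), a glypican that promotes Hedgehog signaling in some tumors, had 4, 2 and 2 raw counts in the WT libraries and 0 in each NUAK2-CR library. A count of 0 in 1 library allows up to 3 counts at this depth (counting error only, if counts are independent). The reads were paired, and whether both mates of a pair were counted is not stated. If they were, this limit is too low. GPC5 was removed by the filter before the test, so whether it differed between the groups was not tested in the main fit.

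The promoters of GPC4 and GPC6 are shown because these are the well-detected glypicans that fell, and they have unlike compositions. GPC4 lies on the minus strand at chrX:133415490-133415739, with 76.0% GC and 2 GC boxes in capitals. For GPC6, on the plus strand at chr13:93226557-93226806, the RefSeq table gives the window before a start that lies inside the gene span above, with 37.6% GC, 0 GC boxes and 1 TATA box in capitals.
GPC4: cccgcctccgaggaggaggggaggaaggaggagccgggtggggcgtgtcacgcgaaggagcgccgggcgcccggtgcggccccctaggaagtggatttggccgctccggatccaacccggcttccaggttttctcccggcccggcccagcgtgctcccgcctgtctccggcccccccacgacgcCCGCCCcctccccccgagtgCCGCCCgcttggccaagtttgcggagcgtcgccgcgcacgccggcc
GPC6: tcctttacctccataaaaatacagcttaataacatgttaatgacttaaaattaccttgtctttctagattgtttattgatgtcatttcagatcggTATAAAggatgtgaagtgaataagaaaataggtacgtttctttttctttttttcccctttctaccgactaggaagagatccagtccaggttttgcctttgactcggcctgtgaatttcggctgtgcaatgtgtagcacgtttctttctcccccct
Neither window held GGAATG or TGANTCA. Promoters were found for 8 of the 10 members. Those of SDC3, GPC1, GPC2 and GPC5 had 5, 4, 3 and 2 GC boxes, and that of GPC5 also held 1 TATA box. The SDC3 window, like that of GPC6, lies before a start inside the gene span given above. There was no match to the TEAD or AP-1 letters in any of the 8. CpG pairs numbered 23 and 26 in the SDC1 and SDC4 windows, 32 in that of GPC4 and 6 in that of GPC6, with a median of 11 over all promoters.

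**Figure D2:**
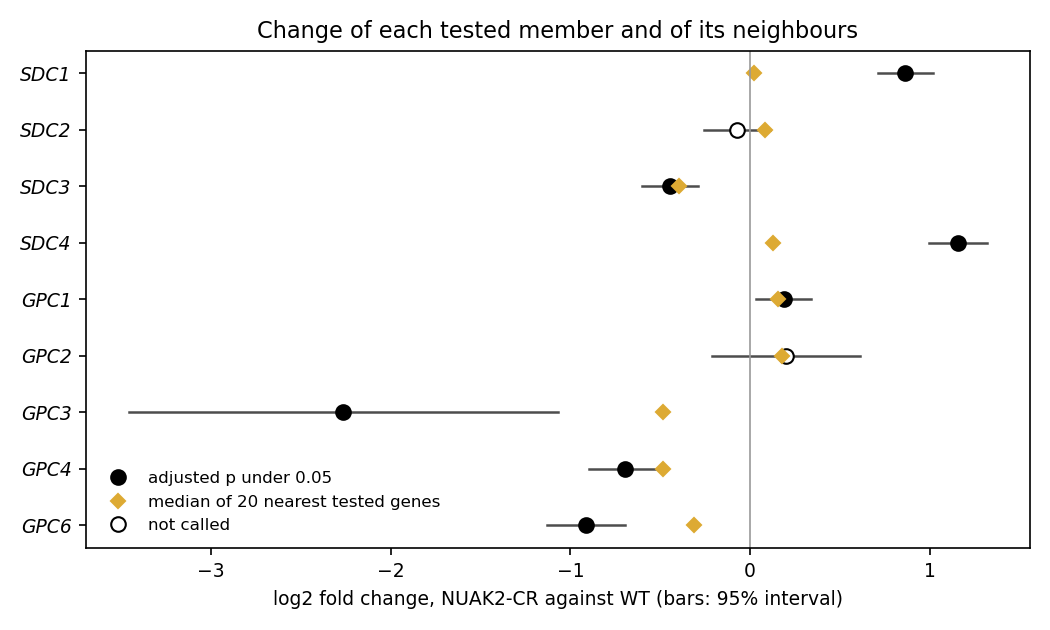
Log2 fold change (NUAK2-CR against WT) of each tested member, with its 95% interval as a bar. Filled circles were called at an adjusted p under 0.05, open circles were not, and diamonds are the median of the 20 nearest tested genes on the same chromosome. SDC1 (0.87) and SDC4 (1.16) lie above the median of their neighbours (0.02 and 0.13), whereas SDC3 (-0.44) and GPC1 (0.19) lie beside theirs (-0.39 and 0.16).

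The change of each member was set beside that of its chromosomal surroundings, as a description without a test. The 20 tested genes nearest to SDC1 had a median log2 fold change of 0.02, and those nearest to SDC4 had 0.13, so SDC1 lay 0.84 and SDC4 lay 1.03 above those medians, although single neighbours reached 2.57 and 2.58 (6 of 20 were called higher around each). With the 10 nearest genes, a number chosen after seeing the data, the difference was 0.52 for SDC1 and 0.74 for SDC4. SDC3 on chromosome 1 lay in a stretch where 12 of 20 neighbours were called lower and 0 higher, with a median of -0.39, and differed from it by -0.05, less than its SE of 0.07. GPC1 lay 0.03 above a median of 0.16. GPC3 and GPC4 are neighbours on the X chromosome, 120.256 kb apart, and the genes around both had a median of -0.48. GPC4 differed from that median by -0.21 and GPC3 by -1.78. GPC5 and GPC6 are neighbours on chromosome 13, 349.292 kb apart. The median around GPC6 was -0.31, with 11 of 20 called lower and 1 higher, and GPC6 differed from it by -0.60. NUAK2 itself, also on chromosome 1, lay in a stretch with a median of -0.82, where 15 of 20 neighbours were called lower, and differed from it by -0.11. Its surroundings depended on the window, with medians of -0.41 over the 10 and -0.44 over the 50 nearest genes, from which NUAK2 differed by -0.52 and -0.49. The part of regional shifts in the members' values was not tested beyond these differences.

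**Figure D3:**
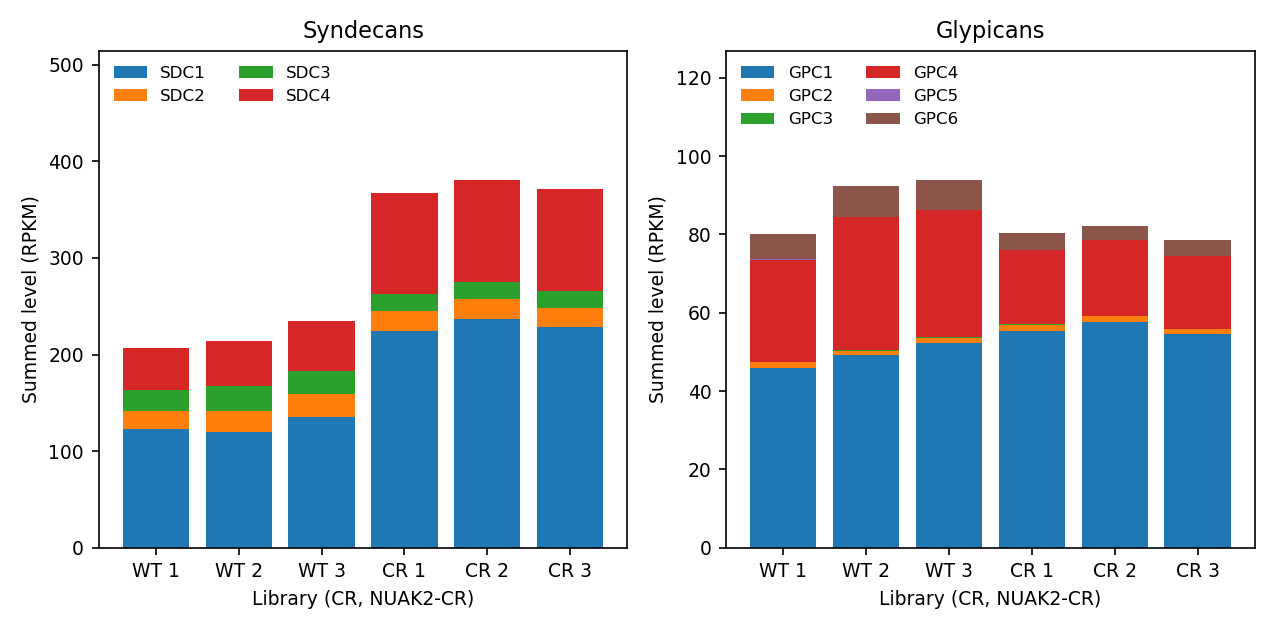
Summed level (RPKM) of the 4 syndecans (left) and the 6 glypicans (right) in each of the 6 libraries, stacked by member. The syndecan sum is higher in all NUAK2-CR libraries (367.2 to 381.0) than in WT (207.2 to 235.2), while the glypican sums overlap between groups.

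Summed over the family, syndecan transcripts came to 207.2, 214.1 and 235.2 RPKM in WT and to 367.2, 381.0 and 371.5 RPKM in NUAK2-CR. Glypican transcripts summed to 80.2, 92.3 and 94.0 RPKM in WT and to 80.3, 82.1 and 78.6 RPKM in NUAK2-CR, with overlapping ranges. The syndecan sum was therefore 2.47 ± 0.14 times the glypican sum in WT, against 4.65 ± 0.08 times in NUAK2-CR (described without a test). These sums, the ratio and the shares below used the length of all exons. With the longest transcript the GPC1 mean was 86.1 RPKM rather than 49.1 in WT, and 98.0 rather than 55.9 in NUAK2-CR. The ratio and the GPC1 shares thus depend on the gene model, beyond the spread between libraries given here. Within the syndecans, the share of SDC4 went from 21.6% ± 0.52 to 28.3% ± 0.41 and that of SDC1 from 57.7% ± 1.73 to 61.6% ± 0.56. SDC3 went from 11.0% ± 0.84 to 4.72% ± 0.07 of the syndecan sum, and SDC2, whose own level did not pass the test, from 9.70% ± 0.74 to 5.41% ± 0.15. Within the glypicans, GPC1 went from 55.4% ± 1.98 to 69.6% ± 0.73, GPC4 from 34.6% ± 2.07 to 23.7% ± 0.16 and GPC6 from 8.29% ± 0.24 to 4.87% ± 0.60. Of the summed transcripts of both families, SDC1 went from 41.1% ± 1.88 to 50.7% ± 0.50 and SDC4 from 15.4% ± 0.34 to 23.3% ± 0.34, whereas GPC1, which gained within the glypicans, went from 15.96% ± 0.06 to 12.3% ± 0.16. Transcript shares are not protein shares, and neither shed nor surface protein was measured here.

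The genes that build, cut and bind the chains were described from 9 lists with 101 genes, of which 88 were tested. In NUAK2-CR 38 (43.2%) were called higher and 29 (33%) lower, 76.1% in all against 54.5% of all tested genes. The lists were chosen with earlier results of these data known, and MMP7 and MMP14 were among the genes the study had reported as changed. These shares, and those of each list below, are therefore a description and not a test of the lists. Of all tested genes 26.3% were called higher and 28.2% lower, which is the background for the counts of each list below. The median log2 fold change over the 88 genes was 0.17. A lone value in parentheses after a gene of these lists, and each list median, is a log2 fold change of NUAK2-CR against WT. The study's DEG thresholds were passed by 3 higher genes (NDST3, MMP14 and SPOCK3) and 6 lower genes (HS3ST2, NDST4, MMP7, MMP9, SLIT3 and PTPRD), of which SPOCK3, HS3ST2, NDST4, MMP9 and PTPRD were outside the naming rule and were named after their values were seen.

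**Figure D4:**
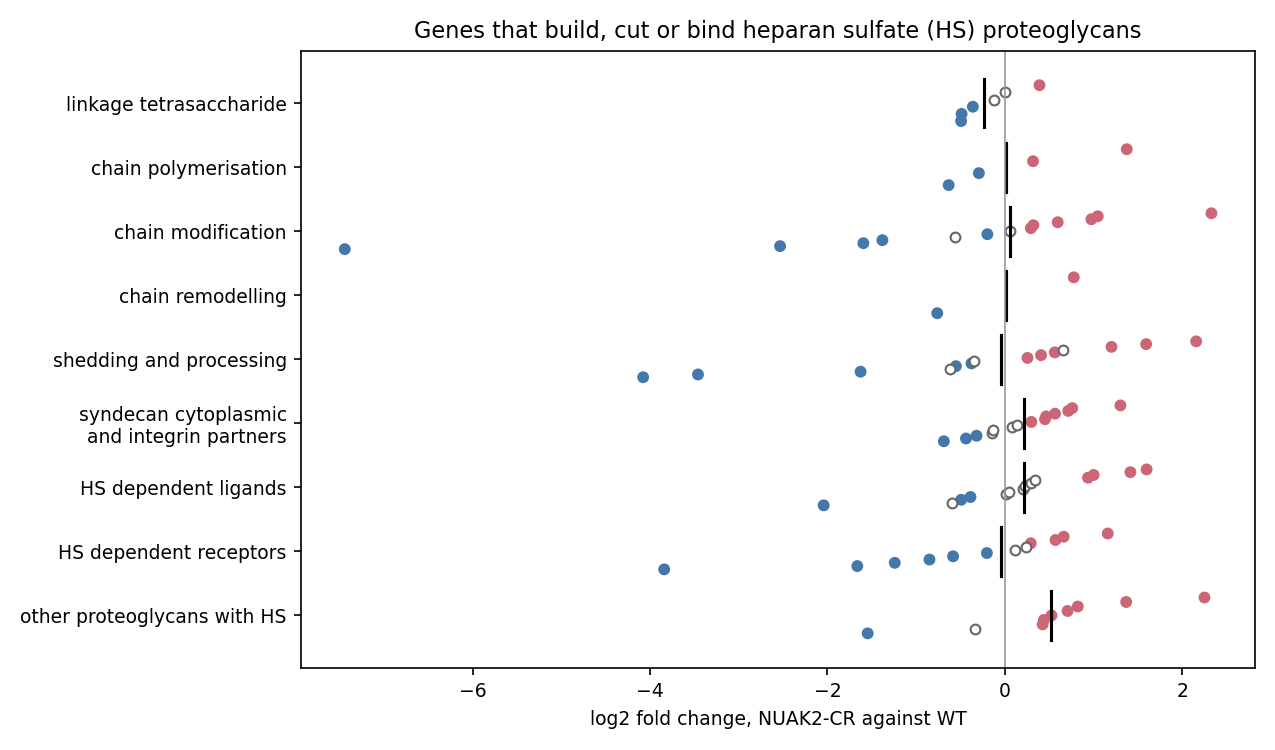
Log2 fold change (NUAK2-CR against WT) of each tested gene in the 9 lists, 1 point per gene and 1 row per list. Red points were called higher, blue points lower and open points were not called, and black bars are list medians. The point at the far left is HS3ST2, with 34, 17 and 24 counts in WT versus 0 in every NUAK2-CR library, for which the fitted fold depends on the prior count.

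Chain synthesis starts with a linkage tetrasaccharide on the core protein. Of the 6 tested genes of this step, 1 was called higher and 3 lower, with a median of -0.24. The lower genes were XYLT2, which adds the first xylose (log2 fold change -0.49), FAM20B, the kinase that phosphorylates that xylose (-0.49), and B3GALT6, which adds a galactose (-0.36). PXYLP1, the phosphatase that acts against FAM20B, was higher (0.39). The heparan sulfate chain is then polymerized by a complex of EXT1 and EXT2, and these 2 subunits went opposite ways. EXT1 had 1040, 1166 and 1160 normalized counts in the WT libraries and 2829, 3036 and 2862 in NUAK2-CR (log2 fold change 1.38, SE 0.07, adjusted p = 1.86e-08). EXT2 had 7147, 8678 and 8961 in WT, against 5160, 5243 and 5581 in NUAK2-CR (-0.63, SE 0.09, adjusted p = 5.58e-05). Neither pair of groups overlapped. Of the EXT-like genes, EXTL3, which starts the chain, was higher (0.32) and EXTL2 was lower (-0.29, with overlapping groups).

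Modification enzymes set the sulfation pattern that ligands read, and 6 of 13 tested were called higher and 5 lower (median 0.06). NDST3, an N-deacetylase/N-sulfotransferase, had 62.4, 77.2 and 78.5 normalized counts in WT versus 380, 367 and 345 in NUAK2-CR, 5.00 times the WT mean (log2 fold change 2.33, SE 0.16). Its paralogs NDST1 and NDST2, named after their values were seen, were more abundant, with means of 8189 and 815 in WT. In NUAK2-CR their means were 10243 and 999. NDST4 was scarce, with means of 35.3 in WT and 6.09 in NUAK2-CR. GLCE, the epimerase that makes iduronic acid, was 1.96 times WT (0.98) and HS3ST1, a 3-O-sulfotransferase, was 2.06 times WT (1.05). The 3-O-sulfotransferases HS3ST3A1 and HS3ST3B1 were lower, at 33.1% and 38.4% of WT (-1.59 and -1.38). Their catalytic parts are near-identical copies, so reads from these parts may go uncounted or be placed in the wrong gene. The values of these 2 genes are uncertain to that extent. HS6ST1, a 6-O-sulfotransferase, was slightly lower (-0.20, adjusted p = 0.0435), while its paralog HS6ST2, named after its values were seen, was higher at 1.51 times WT (0.60, adjusted p = 0.000366). After synthesis, SULF2, which removes 6-O-sulfates outside the cell, had 16544, 22586 and 21820 normalized counts in the WT libraries and 34562, 34220 and 35740 in NUAK2-CR (0.78, adjusted p = 3.76e-05). HPSE (heparanase), which cuts the chain, was at 58.9% of WT (-0.76). SULF1 had 7, 4 and 10 counts in WT, against 0 in NUAK2-CR and was not tested.

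Proteases release syndecan ectodomains, and lipases and NOTUM release glypicans. Of 14 tested genes for shedding and processing, 6 were called higher and 5 lower (median -0.05). MMP14, the membrane-bound metalloproteinase that cleaves syndecan-1, had 6482, 7519 and 7664 normalized counts in WT versus 31818, 33253 and 31615 in NUAK2-CR. Every NUAK2-CR library exceeded every WT library, and the log2 fold change was 2.16 (SE 0.08, adjusted p = 6.87e-10). MMP2, which MMP14 activates, was 3.02 times WT (1.59) and MMP16, another membrane-bound enzyme, was 2.30 times WT. The sheddases ADAM10 (0.41, adjusted p = 0.00286) and ADAM17 (0.26, adjusted p = 0.0344) were modestly higher. MMP7, a secreted enzyme that sheds syndecan-1, had 121, 142 and 143 normalized counts in the WT libraries and 2.54, 12.1 and 8.78 in NUAK2-CR (-4.08, SE 0.37). The convertases FURIN, which processes glypican precursors, and PCSK5 were also lower (-0.55 and -1.63). NOTUM, the carboxylesterase that can cut the glypican anchor, had 85.0, 75.2 and 52.7 normalized counts in WT, against 61.0, 42.2 and 64.8 in NUAK2-CR, which overlapped (-0.35, 95% interval -0.96 to 0.26, adjusted p = 0.316).

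Partners of the syndecan tail and of syndecan-linked integrins included 7 of 14 tested genes called higher and 3 lower (median 0.22). SDCBP (syntenin), the PDZ protein that binds all syndecans, had 5598, 5110 and 5462 normalized counts in WT versus 6821, 7764 and 7560 in NUAK2-CR (0.45, adjusted p = 0.000191). ITGB5 and ITGB3, beta subunits of integrins that act with syndecan-1, were 2.47 and 1.69 times WT (1.30 and 0.76), and SRC, which phosphorylates syndecan tails, was 1.64 times WT (0.72). CASK, another PDZ partner, was lower (-0.32), as were PRKCA, the kinase that syndecan-4 activates (-0.44), and EZR (ezrin), a link to the actin cortex (-0.69). SDC4 and PRKCA thus changed in opposite directions.

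Of 14 tested ligands that depend on heparan sulfate, 4 (28.6%) were called higher and 3 (21.4%) lower (median 0.22). The ligand shares were near those over all tested genes (26.3% and 28.2%). Of 12 tested genes in the list of receptors, which includes the signal transducer SMO, 4 (33.3%) were higher and 6 (50%) lower (median -0.04). PDGFB (1.60), FGF5 (1.42) and VEGFA (1.00) were higher, whereas PDGFA (-0.39), FGF2 (-0.49) and the guidance cue SLIT3 (-2.04) were lower. SLIT2, a related cue and the fourth higher ligand, named after its values were seen, went the other way from SLIT3, from 2407 ± 143 normalized counts in WT to 4613 ± 312 in NUAK2-CR (0.94, adjusted p = 5.83e-07). FGF2, the ligand for which glypican-1 and the syndecans are co-receptors, had 4038, 4094 and 3932 normalized counts in the WT libraries and 2915, 2735 and 2933 in NUAK2-CR. Its receptor FGFR1 had 4123, 4188 and 3946 in WT, against 9256, 8914 and 9246 in NUAK2-CR (log2 fold change 1.16, SE 0.06, adjusted p = 2.07e-08). The ligand and the receptor did not overlap between groups and moved in opposite directions. FGFR3 (-0.85), FGFR4 (-1.66) and the VEGF receptor KDR (-1.24) were lower, and the phosphatase receptor PTPRS (0.66), a binding partner of glypican-4, and SMO (0.57), the Hedgehog signal transducer, were higher, as was MET (0.29), the receptor of HGF, named after its values were seen.

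Other proteoglycans that can carry heparan sulfate were mostly higher. Of 9 tested, 7 were called higher (77.8%, against 26.3% of all tested genes) and 1 lower (11.1%, against 28.2%). Their median was 0.53, against -0.01 over all genes. TGFBR3 (betaglycan), a co-receptor for TGF-beta, had 40.5, 93.6 and 117 normalized counts in WT versus 231, 182 and 224 in NUAK2-CR (1.37, SE 0.31, adjusted p = 0.00231). HSPG2 (perlecan), of basement membranes, was 1.77 times WT (0.82) and SPOCK1 (testican-1) was 1.63 times WT (0.71). CD44, the hyaluronan receptor, was the lower gene, at 34.3% of WT (-1.55, adjusted p = 3.81e-08), and it is also among the markers of the labelled cell type given above.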

How the data were processed

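The data were raw read counts per gene for 3 WT and 3 NUAK2-CR libraries of U251, grouped by the labels. The authors isolated RNA with TRIzol, made libraries with the Illumina Stranded mRNA Prep kit, used Trimmomatic for trimming and HISAT2 for alignment to hg38, and deposited the raw featureCounts counts under NCBI gene identifiers. All tools ran with default settings, which for featureCounts do not use strand, and the annotation is not given in the sources used here. Symbols were matched for 27745 of 28395 identifiers.

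Counts were tested in R 4.3.3 with edgeR 4.0.16 (filterByExpr, TMM, glmQLFit, glmQLFTest, two-sided, Benjamini-Hochberg adjustment over 14873 genes, prior count 0.125, common biological coefficient of variation 0.101), and intervals are 95%. The script was tested on simulated data with far fewer changed genes than here and 1 common dispersion. Its behaviour under changes as wide as these was not tested. The study's own test, DESeq2 (here 1.42.0), was an alternative, with RLE and library-size scaling, other filters, thresholds and prior counts, a replicate block and each library left out. RPKM used GENCODE 44 exon lengths; promoters came from RefSeq. Replicate pairs differed beyond sampling noise (chi-square per degree of freedom 6.25 to 57.6), so none was a duplicate. The highest values were for WT replicate 1 against WT replicates 2 (57.6) and 3 (36.5). WT replicates 2 and 3 gave 13.1, and the NUAK2-CR pairs gave 6.25 to 12.6. WT replicate 1 was also the deepest library, with 55574081 counts.

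Deviations of same-numbered libraries from their group means had correlations of 0.06, -0.09 and 0.11. No pairing by replicate number was seen, but 3 libraries per group cannot exclude a weak one. The members and gene lists were chosen with earlier results of these data known. Named are all members, NUAK2, up to 3 called genes per direction and list whose higher group averaged 100 normalized counts or more and, whatever their values, MMP14, ADAM10, ADAM17, EXT1, EXT2, SULF1, SULF2, HPSE, SDCBP, NOTUM, FGF2 and FGFR1. Counting intervals and floors cover counting error only.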

Additional observations from a re-analysis of the deposited data

How the results depend on the processing

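Across all alternatives SDC1 (log2 fold change 0.83 to 0.92), SDC3 (-0.50 to -0.40), SDC4 (1.11 to 1.23), GPC4 (-0.80 to -0.63) and GPC6 (-0.99 to -0.83) kept their direction and their call. GPC1 ranged from 0.15 to 0.23 (adjusted p 0.019 to 0.141) and lost its call in 5 of the 13 alternatives that gave it a value. Its main edgeR adjusted p of 0.0381 also failed a threshold of 0.01, where 2 rather than 3 members were called higher. GPC2 (0.08 to 0.37) was never called, and SDC2 (-0.16 to -0.01) was called in 1, without WT replicate 1. GPC3 ranged from -3.07 to -1.92 and was called wherever it was tested. The count of members past both DEG thresholds was 1 with edgeR and with DESeq2, and ranged from 0 to 1 over the 6 settings that left out a library; it was 0 with at least 10 counts in every library, where GPC3 is not tested. In those settings with 0, GPC3 either was not tested or lay short of the fold threshold while still called; its highest adjusted p over its alternatives was 0.0212. Testing against a log2 fold change of 0.26 (glmTreat) lowered the genes called higher from 3912 to 2565, since it asks for a larger change, and left 2 members higher and 4 lower.

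With the replicate number as a block, 3 members were called higher, 4 lower and 1 past both DEG thresholds, and 41 and 28 genes of the 9 lists and 3972 and 4195 of all genes were called higher and lower; the block changed no member's call. Low counts limit GPC3, GPC5 and the scarce list genes, and levels per length depend on the gene model, most of all for GPC1.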

Other observations

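Several genes of the 9 lists were at or near 0 in both groups. HS3ST4, HS3ST6, HPSE2, SHH, LRRTM4 and ROBO2 had 0 counts in all 6 libraries, and LRRTM4 is a synaptic receptor for glypican-4. XYLT1, the paralog of XYLT2 that can also start chains, had 3, 2 and 2 counts in WT, against 2, 8 and 0 in NUAK2-CR. SRGN (serglycin), the intracellular proteoglycan of blood cells, had 0, 6 and 0 counts in WT, against 2, 0 and 4 in NUAK2-CR.

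Where GPC5 was kept in the fit with no filter on low counts, its unadjusted p was 0.071 and its adjusted p 0.146 with edgeR, and DESeq2 gave an unadjusted p of 0.179 and no adjusted p.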
